A study of Bos taurus with 12 samples.

Results

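The genes described here encode the proteins of the mitochondrial ribosome, measured in oocytes of Japanese Black cattle. They were taken from the deposited expression table as every gene whose platform symbol is MRPS (small-subunit names) or MRPL (large-subunit names) followed by a number, with or without a letter from A to C. For a gene with several probe sets, the probe set with the highest mean over the 12 arrays stood for it. The rule found 67 of the 9155 genes that the platform annotation names, 24 of them MRPS and 43 MRPL. A filter on low signals kept 64 of the 67 for testing, which were 22 MRPS and 42 MRPL genes. The genes below it, MRPL57, MRPS34 and MRPS11, are described only by their values.

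The study used 12 Affymetrix cattle arrays in 4 groups of 3, each array from RNA of a pool of 50 oocytes stripped of cumulus cells. The germinal vesicle (GV) groups held immature oocytes lysed directly after aspiration of follicles 2 to 8 mm across, from prepubertal heifers or from adult cows. The metaphase II (MII) groups held oocytes of the same 2 kinds of donor after 20 to 22 h of in vitro maturation in serum-containing medium, chosen by an extruded polar body. The heifers were 9 to 12 months old, and their ovaries were removed with a spaying device on farms. The adult ovaries came from an abattoir, and the cows' ages are not stated. Donor age and the way the ovaries were obtained therefore cannot be told apart, and the MII groups hold only oocytes that completed maturation in culture. The labels call the replicates biological, so each error below is the spread between such pools.

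Mitochondria carry their own ribosomes, which translate the few membrane proteins of the respiratory chain that mitochondrial DNA encodes. The proteins of these ribosomes are all nuclear products that are imported into the organelle. Many of them descend from bacterial ribosomal proteins, and others have no bacterial counterpart and were added in the mitochondrial lineage. A growing oocyte accumulates mitochondria and a large store of mRNA, and from the end of growth through maturation it transcribes little, while stored mRNAs change in poly(A) tail and are partly degraded.

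By role, the 64 tested genes comprised 11 small-subunit proteins with a bacterial counterpart, 8 small-subunit proteins found only in mitochondria, 26 large-subunit proteins with a bacterial counterpart and 18 large-subunit proteins found only in mitochondria. MRPS18A and MRPS30, despite their symbols, are parts of the large subunit and are counted there. The remaining gene, MRPS36, carries a ribosomal name but is known as a component of the 2-oxoglutarate dehydrogenase complex in other animals. The values are MAS5 signals on a log2 scale, on which 1 unit is a 2-fold difference. A probe set's signal also depends on its own hybridisation, so each gene is compared only with itself between arrays.

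Before any comparison, the labelled cell type was checked against oocyte markers. On 9 arrays the median of 9 oocyte markers stood 5.49 to 8.31 above the median of all probe sets, but on GV prepubertal replicate 1, GV adult replicate 1 and MII prepubertal replicate 1 it stood between 0.55 below and 0.76 above it. BMP15, an oocyte growth factor, read 7.08, 6.47 and 6.55 on these 3 arrays against 14.21 to 15.10 on the others. The 3 arrays were not alike. The summed linear signal of 19 cumulus and granulosa markers was 183341 and 281091 on the GV and MII prepubertal replicate 1 arrays. On GV adult replicate 1 it was 10153, within the 6526 to 20369 of the other 9. For 10 theca and stroma markers the sum was 3735 to 34073 on the 3 arrays against 287 to 2310. PTX3, a cumulus matrix protein, reached 14.66 and 14.53 on the prepubertal replicate 1 arrays but 7.61 on GV adult replicate 1, against 1.92 to 8.74 on the 9. TNFAIP6 and INHA, on the same marker list, read 10.05 and 7.99 on GV adult replicate 1. Both lay above their ranges on the 9 arrays, 0.29 to 7.41 and 0.66 to 6.44. The summed linear signal of 9 blood markers was 4328 on GV adult replicate 1 against 337 to 1188 on the 9. On that adult array the median of 64 cytosolic ribosomal protein genes stood 0.03 below the median of all probe sets. On the 9 arrays it stood 3.16 to 6.52 above. The part of this in the results was not tested, so comparisons of the family are given over all 12 arrays and over the 9 arrays with an oocyte profile, which hold 2, 2, 2 and 3 arrays for GV prepubertal, GV adult, MII prepubertal and MII adult.

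The signal of the mitochondrial ribosomal genes was first read array by array. Their median log2 signal was 9.38, 9.26 and 9.80 in GV prepubertal replicates 1, 2 and 3, and 8.60, 8.85 and 9.65 in GV adult. It was 8.85, 9.25 and 9.35 in MII prepubertal and 9.07, 9.00 and 8.09 in MII adult. The 4 groups overlap, the lowest array is MII adult replicate 3, and the highest is GV prepubertal replicate 3. The median of all probe sets ranged from 5.64 to 7.52 on the 9 oocyte-profile arrays and was highest, at 8.30, on GV adult replicate 1. It is not set against the family median as a level, since different probe sets are not comparable and each member is read by its highest one.

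**Figure D1:**
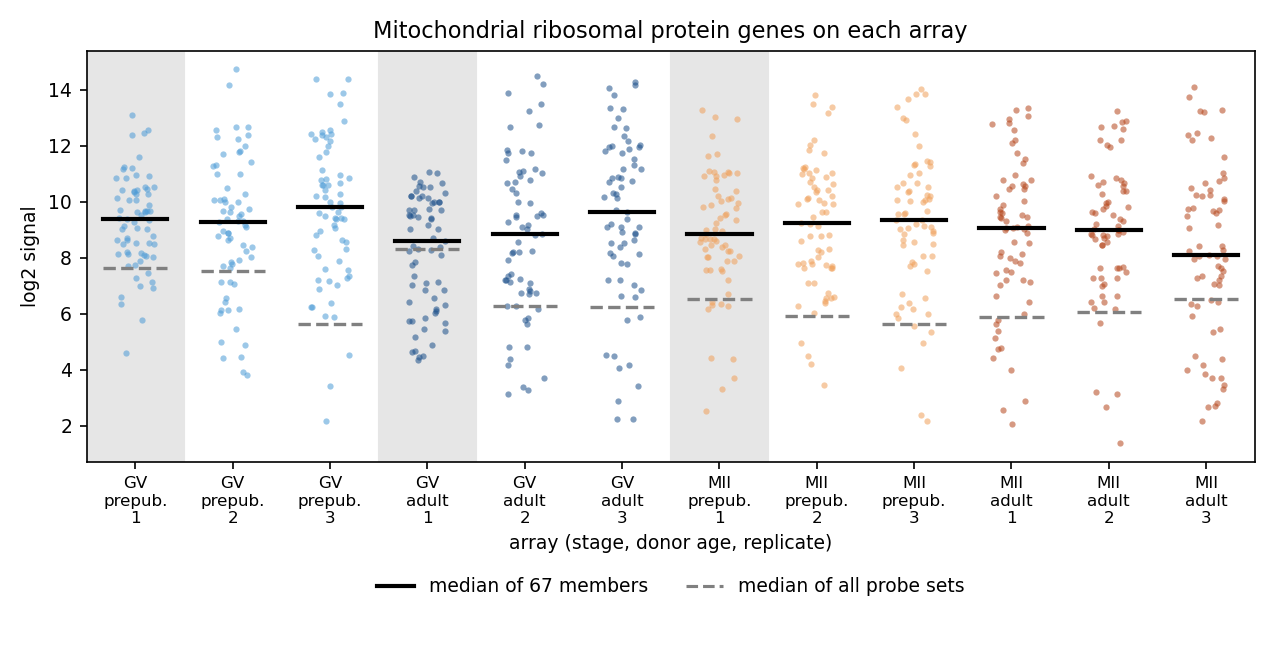
Log2 signal (y axis) of the 67 mitochondrial ribosomal protein genes on each of the 12 arrays (x axis), 1 point per gene, with the median of the 67 genes as a black line and the median of all probe sets as a grey dashed line; shaded columns are the 3 arrays without an oocyte profile. The black lines lie between 8.09 and 9.80 and overlap between the 4 groups.

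Within groups these genes varied less at the median than the table as a whole, a difference that was not tested. Each member is read by its gene's highest probe set, and the members were not compared with probe sets of like signal. The median SD between arrays of a group was 1.49 for the 64 genes and 1.86 for all 14409 tested probe sets over 12 arrays, and 1.08 against 1.5 over the 9. The spread differed widely between members. The tightest within groups over the 9 arrays were MRPL16 with an SD of 0.26, MRPL39 with 0.27 and MRPL44, which has a ribonuclease III-like fold, with 0.29. Over all 12 arrays their SDs were 0.72, 1.16 and 0.75, and MRPS35 with 0.64 and MRPS17 with 0.67 were tighter. MRPS22, a mitochondria-only protein of the small subunit, stayed between 10.20 and 11.76 on all 9 arrays. MRPL27, whose bacterial counterpart reaches into the peptidyl transferase centre, was the loosest over the 9 with an SD of 3.24 and a range from 3.93 to 12.46. These genes were picked after their values were seen.

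Maturation was examined first, since it is the comparison in which a member passed the threshold. In adult oocytes over the 9 arrays, 26 of the 64 genes were numerically higher at MII and 38 lower, with a median log2 difference of -0.28 against 0.05 for all probe sets. With limma and Benjamini-Hochberg adjustment over all probe sets, 1 member, MRPS6, passed an adjusted p of 0.05 and was lower; 0.118% of all probe sets passed. At an unadjusted p under 0.05 there were 12 lower members and 2 higher ones, together 21.9% of the family against 11.4% of all probe sets (4.48% lower and 6.94% higher). MII and GV signals did not overlap for 20 members that were lower, 31.2% of the family against 13.1% of all probe sets, and for 8 that were higher, 12.5% against 15.0%. The lower share is thus above the background, and the higher share is below it. Without MII adult replicate 3 as well, over 8 arrays, 8 lower and 3 higher members had an unadjusted p under 0.05 (17.2% against 13.6% of all probe sets), and 22 lower members did not overlap (34.4% against 20.5%).

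Over all 12 arrays the same comparison had 33 genes higher and 31 lower, a median of 0.10 against -0.10 for all probe sets, and no member past the adjusted threshold, as 0.0% of all probe sets passed. At an unadjusted p under 0.05 there were 5 lower members and 1 higher one, 9.38% of the family against 7.93% of all probe sets (3.85% lower and 4.08% higher). Stages did not overlap for 5 higher members (7.81% against 8.11%) and 7 lower ones (10.9% against 7.19%). The sign of the family median in adult oocytes therefore turns with GV adult replicate 1, the only adult array among the 3 left out. Centring each array on its median moved the median of all probe sets from -0.10 to 0.68 over 12 arrays, and the split became 43 higher and 21 lower. Over the 9 arrays centring gave 30 higher and 34 lower, with the family 0.33 below all probe sets before and after.

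MRPS6, the mitochondrial counterpart of bacterial ribosomal protein S6 in the small subunit, had the clearest difference between stages over the 9 arrays. Its log2 signal was 12.55, 14.72 and 14.38 in GV prepubertal replicates 1 to 3, and 9.49, 14.47 and 13.79 in GV adult. At MII it was 12.95, 10.98 and 9.55 in prepubertal and 10.79, 9.75 and 10.67 in adult oocytes. The 4 GV arrays with an oocyte profile all lay above the 5 such MII arrays, while the excluded GV adult array was the lowest of all 12 and the excluded MII prepubertal array was the highest at MII. Over the 9 arrays the stages, with both ages pooled, did not overlap for 5 lower members, 7.81% of the family against 3.53% of all probe sets. For higher members it was 1, which is 1.56% against 3.82%.

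In adults over the 9 arrays MRPS6 had a mean of 14.13 ± 0.48 (SD, n = 2) at GV and of 10.41 ± 0.57 (SD, n = 3) at MII. It thus fell by 3.72 on the log2 scale (SE 0.66, limma adjusted p = 0.0482). In prepubertal oocytes the log2 difference was -4.28 (SE 0.72), from 14.55 to 10.27, and did not pass (limma adjusted p = 0.43), though it passed without MII adult replicate 3 (limma adjusted p = 0.0459 for MRPS6). Averaged over both ages, a comparison added after the data had been seen, MRPS6 fell by 4.00 (SE 0.49, limma adjusted p = 0.00536), and 0.722% of all probe sets passed. In that comparison 27 members were numerically higher at MII and 37 lower, with a median of -0.37 against -0.07 for all probe sets. At an unadjusted p under 0.05 there were 3 higher and 10 lower members. Together they were 20.3% of the family against 14.1% of all probe sets (8.19% higher and 5.93% lower). The adult call rests on its settings: the adjusted p ranged from 0.0177 to 0.289 over 13 alternatives and stayed under the threshold in 2. Leaving out each of the 9 arrays in turn kept the adult call only without MII adult replicate 3. For the averaged difference the adjusted p ranged from 0.000772 to 0.092 and passed in 10 of 13. For MRPS6 the call was lost with median centring (adjusted p = 0.092), without GV prepubertal replicate 2 (adjusted p = 0.0515) and without MII prepubertal replicate 3 (adjusted p = 0.0645).

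Over all 12 arrays MRPS6 did not pass in adult oocytes (difference -2.18, SE 1.36, limma adjusted p = 0.671), in prepubertal oocytes (-2.72, SE 1.36, limma adjusted p = 0.999) or averaged over both (-2.45, limma adjusted p = 0.408). With array weights, which let limma count noisier arrays for less, the averaged difference of MRPS6 over all 12 arrays was -3.50 and passed (limma adjusted p = 0.00822). In that setting 6 of the 64 members passed, 9.38% of the family against 5.93% of all probe sets. In these bulk pools, fewer cells contributing RNA and less RNA per cell cannot be told apart. The signals have the same trimmed mean on every array, so a fall is relative to the other probe sets. The part of poly(A) tail changes or degradation during maturation in the MRPS6 difference was not tested.

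**Figure D2:**
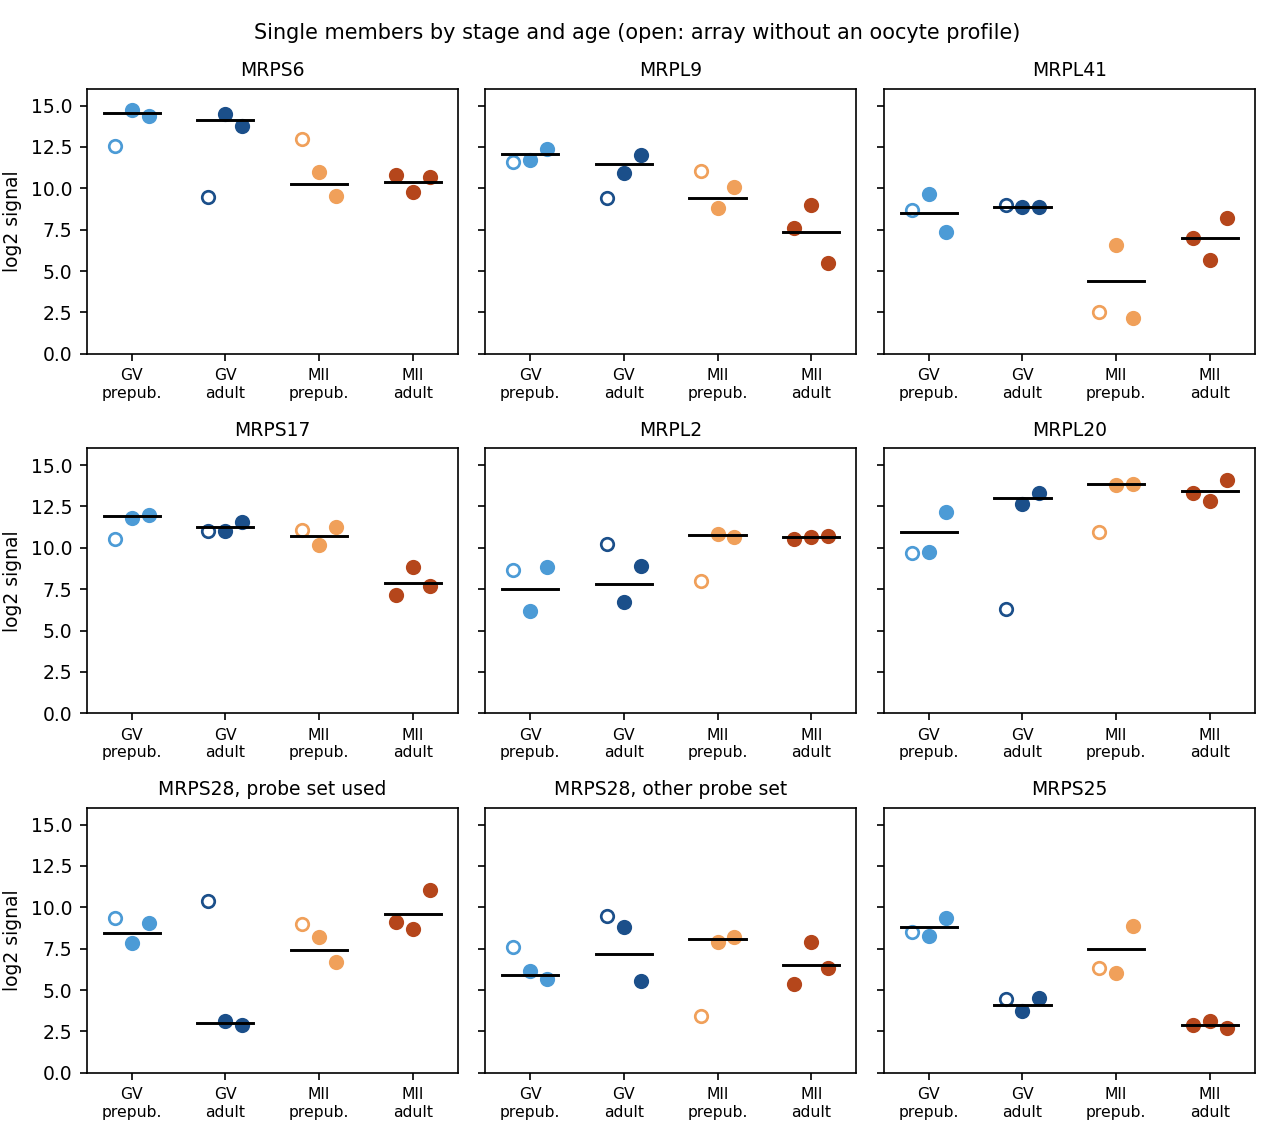
Log2 signal (y axis, from 0) of 8 mitochondrial ribosomal protein genes in the 4 groups (x axis), 1 point per array; open points are the 3 arrays without an oocyte profile and black lines are means of the filled points. The 4 filled GV points of MRPS6 lie at 13.79 or above and the 5 filled MII points at 10.98 or below; MRPS28 appears with both of its probe sets.

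MRPL9 is a large-subunit protein whose bacterial counterpart has an elongated shape on the ribosome surface. Over the 9 arrays it had the next largest evidence for a lower MII signal averaged over both ages. It read 11.60, 11.69 and 12.40 in GV prepubertal, 9.39, 10.90 and 12.01 in GV adult, 11.07, 8.78 and 10.05 in MII prepubertal and 7.58, 9.00 and 5.46 in MII adult. On the 9 arrays the MII signals were all below the GV signals, as for 3.53% of all probe sets. The averaged difference was -3.37 (SE 0.83, limma adjusted p = 0.0791) over 9 arrays and -2.68 (SE 0.82, limma adjusted p = 0.354) over 12, so it did not pass in either. MRPL9 passed over 9 arrays with quantile normalization (limma adjusted p = 0.0495) and without MII adult replicate 3 (limma adjusted p = 0.0349), and over 12 with array weights (-2.71, limma adjusted p = 0.0222).

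MRPL10, the base of the flexible stalk that recruits translation factors, was the only member whose 6 MII signals all lay below its 6 GV signals over the full 12 arrays, as for 0.5% of all probe sets; no member had all MII signals above, as 0.451% of all probe sets did. It read 10.07, 9.99 and 9.42 in GV prepubertal, 10.53, 8.81 and 8.88 in GV adult, 8.44, 6.45 and 8.06 in MII prepubertal and 6.41, 7.29 and 6.34 in MII adult. In that averaged comparison over 12 arrays 2 higher and 6 lower members had an unadjusted p under 0.05 (3.12% and 9.38% of the family against 4.39% and 6.27% of all probe sets). For MRPL10 the averaged difference was -2.45 (SE 0.79, limma adjusted p = 0.354) over 12 arrays and -2.31 (SE 0.86, limma adjusted p = 0.241) over 9, past the threshold in neither, while with array weights over 12 arrays it passed (-2.48, limma adjusted p = 0.0334).

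MRPL41, a mitochondria-only protein of the large subunit that has also been described as a partner of BCL2, was low at MII in heifers. Its signals were 8.69, 9.67 and 7.34 in GV prepubertal and 9.02, 8.85 and 8.85 in GV adult. They were 2.53, 6.57 and 2.19 in MII prepubertal and 7.02, 5.66 and 8.23 in MII adult. At GV the age groups overlap closely, the prepubertal MII signals lie below every GV signal, and at MII the age groups overlap through replicate 2. The prepubertal maturation difference was -4.80 (SE 1.44, limma adjusted p = 0.999) over 12 arrays and -4.13 (SE 1.67, limma adjusted p = 0.682) over 9. The adult difference was -1.94 (SE 1.44) and -1.88 (SE 1.53), without a pass. Averaged over both ages over 12 arrays with equal weights, MRPL41 had the lowest adjusted p of the family, without a pass (-3.37, limma adjusted p = 0.348). With array weights over 12 arrays the averaged MRPL41 difference of -3.31 passed (limma adjusted p = 0.0437).

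Other members lower at MII in adults were MRPS17 and MRPS24, both small-subunit proteins with bacterial counterparts. MRPS17 read 11.03, 11.01 and 11.53 in GV adult but 7.15, 8.81 and 7.71 in MII adult, a difference of -3.38 (SE 0.90, limma adjusted p = 0.158) over 9 arrays and -3.30 (SE 1.02, limma adjusted p = 0.563) over 12. In heifers its GV signals were 10.52, 11.80 and 11.99 and its MII signals 11.10, 10.19 and 11.27. There the stages overlap only through the replicate 1 arrays, and the difference was -1.17 (SE 0.99) over 9 arrays and -0.58 (SE 1.02) over 12. MRPS24 read 9.70, 7.43 and 11.98 in GV adult and 4.78, 7.07 and 4.18 in MII adult, a difference of -4.36 over 9 (SE 1.75, limma adjusted p = 0.349) and over 12 arrays (SE 1.5, limma adjusted p = 0.563). Neither gene passed in adults, and MRPS17 passed averaged over both ages with array weights over 12 arrays (-2.06, SE 0.58, limma adjusted p = 0.0441).

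Some members ran the other way. MRPL2, which lies near the peptidyl transferase centre, read 10.55, 10.66 and 10.74 in MII adult and 10.86 and 10.65 in the MII prepubertal arrays with an oocyte profile. At GV such arrays read 6.18 and 8.81 in heifers and 6.70 and 8.92 in adults. All MII signals thus lay above all GV signals on the 9 arrays, as for 3.82% of all probe sets. The averaged difference was 3.05 (SE 0.82, limma adjusted p = 0.111) over 9 arrays and 2.00 (SE 0.87, limma adjusted p = 0.434) over 12. There MII prepubertal replicate 1 at 8.01 brought the stages into overlap, and GV adult replicate 1 at 10.22 was the highest at GV. With array weights over 12 arrays the averaged MRPL2 difference was 3.18 and passed (limma adjusted p = 0.015). MRPL20, whose bacterial counterpart acts early in large-subunit assembly, read 9.73 and 12.15 in GV prepubertal replicates 2 and 3 and 13.82 and 13.84 in the matching MII arrays. Its prepubertal difference was 2.89 (SE 0.74, limma adjusted p = 0.544) over 9 arrays, and its other probe set gave 1.65 (SE 1.14). Over 12 arrays the difference was 2.36 (SE 1.55), and the other probe set had the opposite sign at -1.02.

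MRPS28, a small-subunit protein, had the largest difference of the family in adult maturation over the 9 arrays. It read 10.38, 3.14 and 2.90 in GV adult and 9.10, 8.68 and 11.04 in MII adult, against 9.36, 7.84 and 9.07 in GV prepubertal and 9.00, 8.19 and 6.70 in MII prepubertal. The pair of low values are the GV adult arrays with an oocyte profile. Over 9 arrays its adult difference was 6.58 (SE 1.29, limma adjusted p = 0.0617), which misses the threshold, and over 12 it was 4.13 (SE 1.64, limma adjusted p = 0.589). MRPS28 passed over 9 arrays without the filter (adjusted p = 0.0475) and over 12 with array weights (adjusted p = 0.0465). Its other probe set did not share the pattern. That probe set read 9.50, 8.78 and 5.56 in GV adult and 5.35, 7.92 and 6.34 in MII adult, a difference of -0.63 (SE 1.52) over 9 arrays.

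In prepubertal oocytes over the 9 arrays, 30 members were numerically higher at MII and 34 lower, with a median of -0.25 against -0.14 for all probe sets, and none passed. The lowest adjusted p was 0.43, for MRPS6. At an unadjusted p under 0.05 there were 5 members, 7.81% of the family against 6.99% of all probe sets. Stages did not overlap for 16 higher members, 25% of the family against 19.4% of all probe sets, and for 16 lower members, 25% against 20.8%. With 2 arrays a group, the family lay near the background here.

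Over 12 arrays 23 members were higher and 41 lower in prepubertal maturation, with a median of -0.41 against -0.29, none past the threshold as 0.0% of all probe sets passed, and 2 at an unadjusted p under 0.05 (3.12% of the family against 3.41%). Stages did not overlap for 2 higher members (3.12% against 3.66%) and 7 lower ones (10.9% against 6.05%). Centring each array on its median turned this split to 48 higher and 16 lower over 12 arrays and to 42 higher and 22 lower over 9, while it moved the median of all probe sets to 0.62 and 0.66. The family stayed 0.12 and 0.11 below all probe sets. By its construction, centring leaves the family's position relative to all probe sets as it was.

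For MRPS9 and MRPS2, also named in this comparison, the probe sets disagreed. MRPS9 read 9.14, 9.32 and 9.82 in GV prepubertal and 6.28, 6.59 and 6.55 in MII prepubertal, with no overlap, a difference of -2.95 (SE 1.26, limma adjusted p = 0.999) over 12 arrays. Its other probe sets gave 2.59 (SE 1.61) and -2.34 (SE 1.44). MRPS2 had GV prepubertal signals of 5.78, 7.62 and 6.26 and MII prepubertal signals of 8.85, 10.33 and 8.05, also with no overlap, a difference of 2.52 (SE 1.53, limma adjusted p = 0.999), whereas its other probe set gave -3.09 (SE 1.68). MRPL46 and MRPL38, mitochondria-only proteins of the central protuberance, had differences of 2.79 (SE 1.6) and 2.30 (SE 1.3) over 12 arrays and 3.35 (SE 1.62) and 2.58 (SE 1.39) over 9, none past the threshold. The other probe set of MRPL46, whose mean is below the filter, gave 2.04 (SE 1.79) over 12 arrays and 1.89 (SE 2.09) over 9, and MRPL38 has 1 probe set.

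Of the 67 genes, 14 had more than 1 probe set, and 17 such further probe sets were measured. In single comparisons between 6 and 11 of the 17 had the sign of the probe set used. The direction of a single member with several probe sets is therefore uncertain here. MRPS6, MRPL41, MRPL9, MRPL10 and MRPL2 are each read by 1 probe set, so no second reading of them exists in these data.

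**Figure D3:**
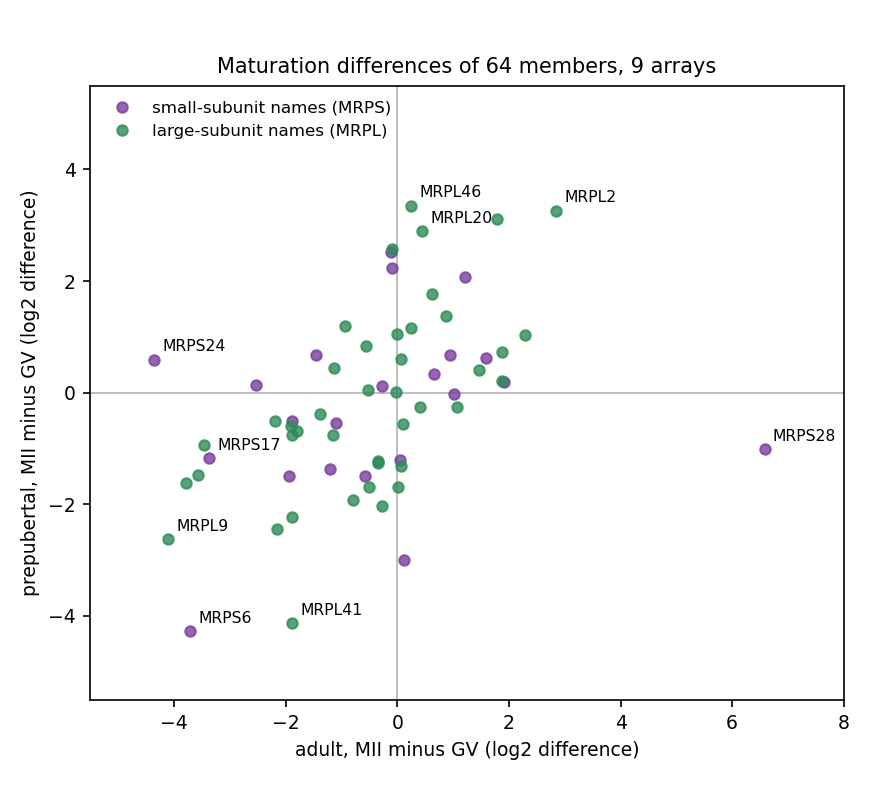
Log2 difference MII minus GV in adult oocytes (x axis) against that in prepubertal oocytes (y axis) over the 9 arrays with an oocyte profile, 1 point per gene for 64 genes, coloured by MRPS or MRPL name. MRPS6 lies at -3.72 and -4.28, MRPL2 at 2.84 and 3.26, and MRPS28 stands apart at 6.58 and -1.01.

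The adult and prepubertal maturation differences share no array and can be set side by side. Over 9 arrays 17 members were higher at MII at both ages and 25 lower at both, so 65.6% had the same sign, against 62.5% of all probe sets. Over 12 arrays 62.5% had the same sign, against 65.7% of all probe sets. The family did not stand out from the table in this respect.

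The adult maturation differences over 9 arrays were also read by role. Small-subunit proteins with a bacterial counterpart had a median of -0.09 with 5 members higher and 6 lower, and mitochondria-only ones had 0.19 with 4 and 4. Large-subunit proteins with a bacterial counterpart had -0.31 with 10 and 16, and mitochondria-only ones -0.32 with 7 and 11. Over 12 arrays these medians were -0.53 with 5 and 6, 0.55 with 5 and 3, 0.11 with 13 and 13, and 0.10 with 10 and 8, so both large-subunit medians turned sign. None of these role medians was tested, and each group spans members of both signs. The non-ribosomal MRPS36 read 10.31 and 10.85 in the GV adult arrays with an oocyte profile and 9.51, 9.37 and 7.19 in MII adult.

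Age was compared next at each stage. In GV oocytes over 12 arrays 47 members were numerically higher in prepubertal than in adult pools and 17 lower, 73.4% higher against 57.6% of all probe sets, with a median of 0.58 against 0.25. None passed the adjusted threshold, as 0.0% of all probe sets passed, and 1 member, MRPS25, had an unadjusted p under 0.05 (1.56% of the family against 2.51% of all probe sets, of which 1.98% were higher). Age groups were apart for 2 higher members (3.12% against 3.8%) and 1 lower one (1.56% against 1.88%). Over 9 arrays the split was 38 higher and 26 lower with a median of 0.17 against 0.23, and none passed. Age groups did not overlap for 10 higher members (15.6% of the family against 16.2% of all probe sets) and 11 lower ones (17.2% against 11.0%). Centring over the 9 arrays turned the split to 31 higher and 33 lower, so GV oocytes gave no stable direction for the family.

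In MII oocytes over 12 arrays 39 members were higher in prepubertal pools and 25 lower, with a median of 0.22 against -0.02, and none passed, as 0.0% of all probe sets passed. At an unadjusted p under 0.05 there were 5 higher and 1 lower, together 9.38% of the family against 2.66% of all probe sets (1.91% higher and 0.75% lower). Age groups were apart for 6 higher members (9.38% against 4.78%) and 4 lower ones (6.25% against 5.18%). Over 9 arrays 43 were higher and 21 lower with a median of 0.38 against 0.07, and the 6 members at an unadjusted p under 0.05 were all higher, 9.38% against 2.56% of all probe sets in either direction and 1.2% higher. Groups did not overlap for 12 higher members, 18.8% of the family against 9.24% of all probe sets, and for 5 lower, 7.81% against 9.89%. Centring over 9 arrays gave 49 higher and 15 lower, and quantile normalization 39 and 25. The shift was not particular to the family. Over 9 arrays 65 of 77 genes on a list of nuclear respiratory subunits were higher and 12 lower (median 0.71). Of 63 cytosolic ribosomal proteins 52 were higher and 11 lower (median 0.89). Over 12 arrays these lists split 68 and 9, and 61 and 2. No difference between lists was tested.

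In the MII age comparison 1 adult array stood apart. MII adult replicate 3 held the lowest signal of the 9 arrays for 20 of the 64 members, 31.2% against 21.3% of all probe sets. It also held the highest signal for 9 members, 14.1% against 14.6% of all probe sets. The 3 widest gaps between a member's lowest and next lowest signal were on it. MRPL4 read 3.30 there and 9.03 or more on the other 8 arrays, MRPL11, part of the site where translation factors bind, read 2.68 against 7.62 or more, and MRPL58, a peptidyl-tRNA hydrolase built into the ribosome, read 2.17 against 6.17 or more. These 3 genes were picked after their values were seen. Without MII adult replicate 3, 41 members were higher and 23 lower in prepubertal MII pools, with a median of 0.26 against -0.10, and 5 members, all higher, had an unadjusted p under 0.05 (7.81% against 2.16%). The highest signal of the 9 fell on GV prepubertal replicate 3 for 14 members, 21.9% against 7.94% of all probe sets.

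**Figure D4:**
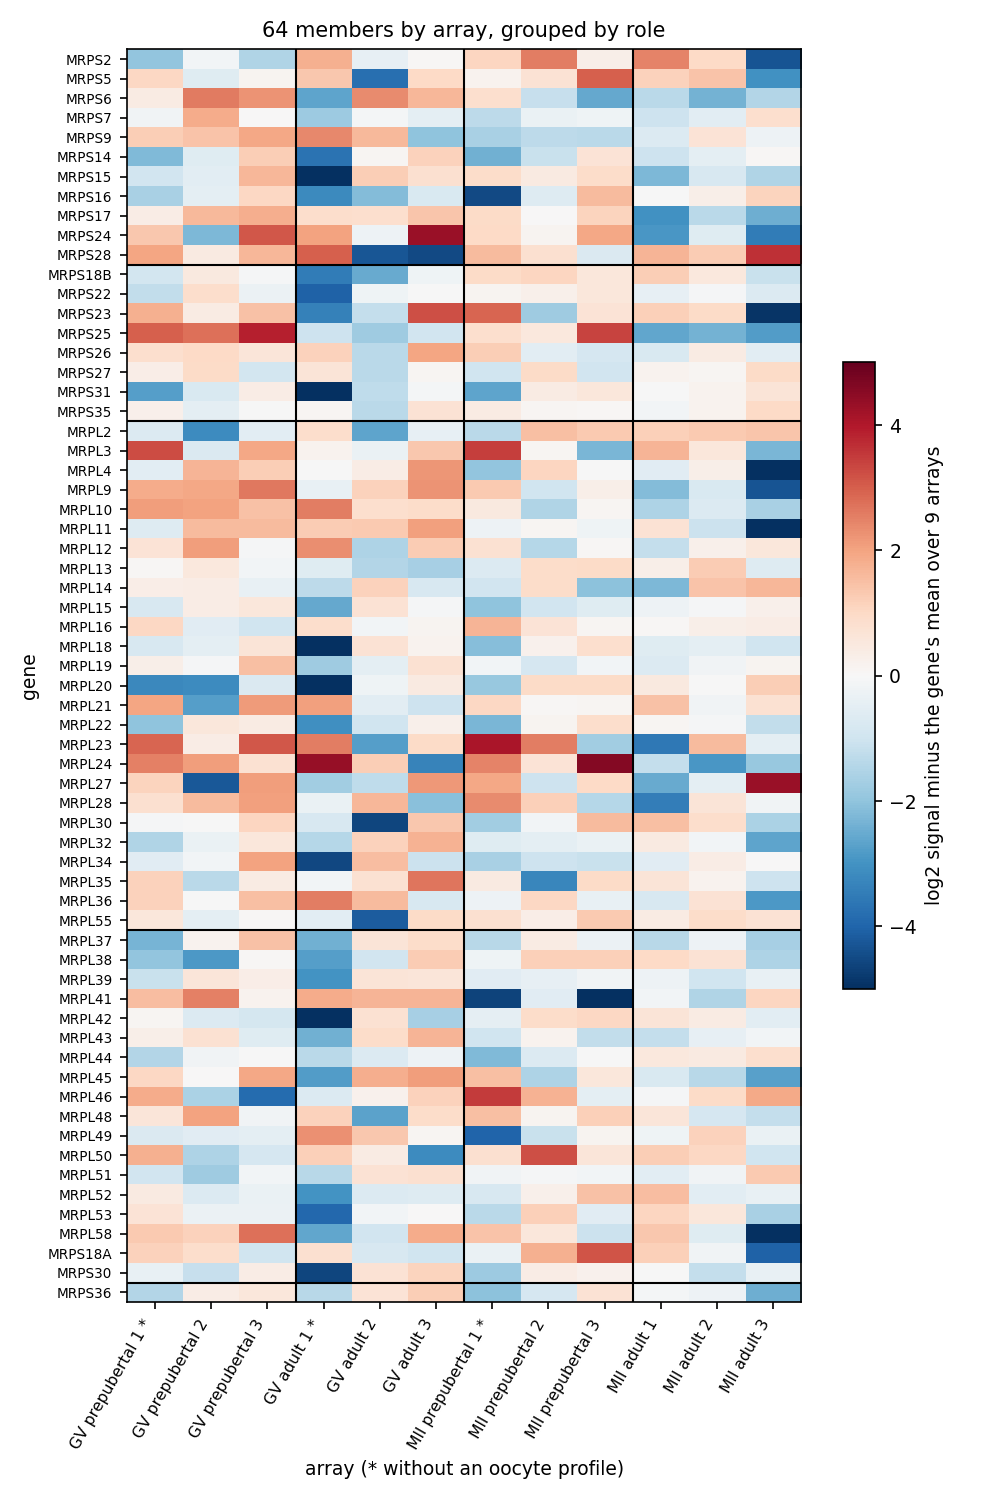
Log2 signal of the 64 tested genes (y axis) on the 12 arrays (x axis; * marks arrays without an oocyte profile) minus each gene's mean over the 9 oocyte-profile arrays, red higher and blue lower, with colours saturating at 5 units. Black lines separate the 4 groups of arrays and the roles, from top to bottom small-subunit with bacterial counterpart, small-subunit mitochondria-only, large-subunit with bacterial counterpart, large-subunit mitochondria-only, and MRPS36; the MII adult 3 column holds 20 of the 64 lowest values among the 9 arrays.

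MRPS25, a mitochondria-only protein of the small subunit, differed by age in the same direction at both stages. It read 8.49, 8.24 and 9.38 in GV prepubertal against 4.48, 3.71 and 4.54 in GV adult, and 6.35, 6.04 and 8.88 in MII prepubertal against 2.90, 3.14 and 2.71 in MII adult. All 6 prepubertal signals lay above all 6 adult signals. MRPS25 was named for its small p, and the share of all probe sets separated by age over both stages was not counted. The difference was 4.46 (SE 1.39) at GV and 4.17 (SE 1.39) at MII over 12 arrays, and 4.69 (SE 1.66) and 4.54 (SE 1.51) over 9. It did not pass at either stage, with a limma adjusted p of 0.997 at GV over 9 arrays. The adult signals all lie under 5.57, the bound that the filter set on a probe set's mean.

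MRPS17 and MRPL24, whose bacterial counterpart starts large-subunit assembly, were also higher in prepubertal than adult MII pools without overlap. MRPS17 differed by 2.96 (SE 1.02) over 12 arrays and 2.84 (SE 0.90) over 9. MRPL24 read 8.08, 6.28 and 10.19 in MII prepubertal and 4.42, 2.68 and 3.70 in MII adult, differing by 4.58 (SE 1.74) and 4.63 (SE 1.77). MRPL44 was lower, reading 10.22, 11.74 and 12.41 in MII prepubertal and 12.94, 12.87 and 13.27 in MII adult, a difference of -1.57 (SE 1.08) over 12 arrays and -0.95 (SE 0.56) over 9. None of the 3 passed.

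At GV further members differed numerically by age and none passed. MRPS28, with its low GV adult signals given above, had a difference of 5.43 (SE 1.42, limma adjusted p = 0.997) over 9 arrays and 3.28 (SE 1.64) over 12, whereas its other probe set gave -1.27 (SE 1.66) and -1.47 (SE 1.57). MRPL46 had -3.42 (SE 1.62) over 9 arrays and -1.44 (SE 1.6) over 12. MRPL13 was higher in prepubertal pools, reading 8.76, 9.26 and 8.57 against 8.10, 7.24 and 7.04, without overlap, and its difference was 1.4 (SE 1.09) over 12 arrays and 1.77 (SE 1.18) over 9. MRPL49 was lower, reading 6.98, 7.12 and 7.20 against 9.99, 9.04 and 7.79, a difference of -1.84 (SE 1.33) and -1.25 (SE 1.33). MRPL51 differed by -1.0 (SE 1.07) and -1.71 (SE 0.90), MRPS18B by 1.91 (SE 1.22) and 1.59 (SE 1.33), and MRPL20 by -0.25 (SE 1.55) and -2.04 (SE 0.74).

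The interaction asks whether maturation differed by age, as the prepubertal minus the adult maturation difference. No member passed over 12 or 9 arrays, and 2 had an unadjusted p under 0.05 in each, 3.12% of the family against 1.21% and 3.06% of all probe sets. Over 12 arrays 25 were above and 39 below zero with a median of -0.27, the same as all probe sets. Over 9 arrays 36 were above and 28 below with a median of 0.44 against -0.17. MRPS28 had -4.92 (SE 2.32) over 12 arrays and -7.59 (SE 1.92) over 9, while its other probe set had 1.45 (SE 2.22) and 2.80 (SE 2.25). MRPS24, the other member at an unadjusted p under 0.05 over 12 arrays, had 4.64 (SE 2.12) and 4.95 (SE 2.60). MRPL20, the other such member over 9 arrays, had 2.45 (SE 1.0) there and -0.30 (SE 2.19) over 12, and its other probe set had 1.75 (SE 1.55) over 9. MRPS6 had -0.55 (SE 1.92) and -0.56 (SE 0.98), an interval that leaves room for sizeable differences of either sign.

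The remaining named members are given briefly. MRPS31 had 2.71 (SE 1.46) in adult maturation over 12 arrays and 0.94 (SE 0.55) over 9. MRPL18 had an interaction of 1.58 (SE 0.76) over 9 arrays, and MRPS16 and MRPL34 had -3.32 (SE 2.03) and -3.01 (SE 1.86) over 12. None passed.

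The 3 members below the filter are given as values alone. MRPS11 read 4.42, 3.41, 5.64 and 4.16 on the GV arrays with an oocyte profile and 6.37, 6.38, 7.45, 6.43 and 8.41 at MII, without overlap. Of the tested probe sets 3.82% were higher at MII without overlap on these arrays. MRPL57 read 5.00, 5.92, 6.16 and 4.05 at GV, 4.96 and 4.96 in MII prepubertal and 2.55, 1.39 and 2.82 in MII adult. MRPS34 read 6.14, 6.24, 4.17 and 4.51 at GV and between 2.40 and 7.02 at MII. On the 3 arrays without an oocyte profile MRPL57 reached 9.51, 10.21 and 7.54, above all of its other signals, and MRPS34 reached 10.67 on GV adult replicate 1.

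Other genes of mitochondrial translation were read from lists. Of the 5 tested proteins of the mitochondrial ribosome with other names, 2 were numerically higher and 3 lower in adult maturation over 9 arrays and none passed. AURKAIP1 among them read 9.23, 7.90 and 10.07 in GV adult and 6.22, 6.52 and 4.29 in MII adult, a difference of -3.31 (SE 1.28, limma adjusted p = 0.326) over 9 arrays and -3.39 (SE 1.18, limma adjusted p = 0.563) over 12. Of 13 translation factors 8 were higher and 5 lower, and of 23 ribosome assembly genes 9 were higher and 14 lower. MTERF4, which recruits a methyltransferase to the large subunit, had a difference of 4.95 (SE 1.31, limma adjusted p = 0.158) over 9 arrays and 4.37 (SE 2.05) over 12. MTFMT, which formylates the initiator methionine, had 2.12 (SE 1.14) in adults and 3.25 (SE 1.25) in heifers over 9 arrays, and 1.67 (SE 1.22) and 2.26 (SE 1.22) over 12. Averaged over both ages it passed over 12 arrays with array weights (2.98, limma adjusted p = 0.0204 for MTFMT) but not with equal weights (1.97, limma adjusted p = 0.437). Of 12 mitochondrial tRNA synthetases 5 were higher and 7 lower, and none of these lists had a gene past the threshold in adult maturation. Over 12 arrays the 5 proteins split 2 and 3, the translation factors 9 and 4, the assembly genes 8 and 15 and the synthetases 6 and 6, again with no pass.

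Of 12 genes for mitochondrial DNA expression 6 were higher and 6 lower in adult maturation over 9 arrays, and SSBP1, the single-stranded DNA binding protein of mitochondria, passed in the averaged comparison. It read 13.80, 13.04, 12.10 and 12.68 on the GV arrays with an oocyte profile and 9.98, 11.08, 9.79, 9.79 and 9.47 at MII. The signals do not overlap, as for 3.53% of all probe sets with MII lower, and SSBP1 fell by 2.80 (SE 0.53, limma adjusted p = 0.0324). With median centring the SSBP1 difference was -2.34 and did not pass (limma adjusted p = 0.208). Over 12 arrays it was -1.53 (SE 0.87, limma adjusted p = 0.52), and with array weights -2.42, which passed (limma adjusted p = 0.0255 for SSBP1). The 12 genes split 7 higher and 5 lower in adult maturation over 12 arrays.

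The lists of respiratory and cytosolic ribosomal genes were read the same way over the 9 arrays. Of 77 genes on the list of nuclear respiratory subunits 18 were numerically higher and 59 lower in adult maturation, with a median of -1.29. NDUFA12 fell by 3.50 (SE 0.55, limma adjusted p = 0.0215). ATP5IF1, an inhibitor of ATP synthase that the list includes, fell by 3.14 (SE 0.54, limma adjusted p = 0.0393). Of 63 cytosolic ribosomal proteins 20 were higher and 43 lower, with a median of -0.57, and RPL38 fell by 3.78 (SE 0.60, limma adjusted p = 0.0215). All 3 calls were lost with median centring, where no probe set passed: the limma adjusted p was 0.307 for NDUFA12, 0.33 for ATP5IF1 and 0.289 for RPL38. Over 12 arrays the differences were -2.0 for NDUFA12, -1.69 for ATP5IF1 and -2.01 for RPL38, none past the threshold, also with array weights (limma adjusted p of 0.0896, 0.136 and 0.11). The respiratory subunits then split 28 higher and 49 lower with a median of -0.57. The cytosolic ribosomal proteins turned to 41 higher and 22 lower with a median of 0.61. Over the 9 arrays the family median of -0.28 lay between these and the 0.05 of all probe sets, and no test of the difference between lists was made.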

How the data were processed

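Total RNA of each oocyte pool was amplified, biotin-labelled and hybridised to 1 Affymetrix cattle array, per the labels' protocols. The deposited table holds log2 signals that the authors made with MAS5, per the submitters' processing notes, which give no version; the trimmed mean of the linear signals (2% off each end) is 500 on every array. Detection calls were not analysed here. Of 24128 probe sets, 112 were controls, 13292 had 1 gene symbol in the platform annotation, 86 several and 10638 none. Entrez identifiers matched the current cattle gene table for 99.8% of the probe sets that have one, and updating symbols changed no member. The number of arrays limits the precision.

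From these values, limma 3.58.1 in R 4.3.3 (lmFit and eBayes with an intensity trend) was fitted to the 14409 probe sets above the 40th percentile of mean log2 signal (5.57), with group means only, once over 12 arrays and once over the 9 with an oocyte profile. p-values were adjusted by Benjamini-Hochberg over all probe sets. Further probe sets of a gene were read from a fit without the filter. The script was tested on simulated data. Genes named with values were MRPS6 and MRPL41, members past the threshold, the 3 members higher and 3 lower with the smallest p in each comparison and fit, members whose probe sets disagreed, and the leading genes of the other lists; exceptions are stated. The members, lists and rules were chosen with earlier results of these data known. Deviations from the group means of same-numbered arrays correlated by 0.609, 0.149 and 0.306 for replicates 1, 2 and 3 between the prepubertal stages. All lay above the bound of 0.1 set for taking the numbers as pairs, and in the other comparisons at least 1 pair was under it. The 0.609 is for the replicate 1 arrays, both without an oocyte profile, and the source of the correlation was not tested. The fits above do not use pairs, so their prepubertal maturation errors ignore any pairing. A replicate block was run only as an alternative over 12 arrays. The alternatives were scaling, filters, a pseudocount, probe set means, array weights, a replicate block and left-out arrays.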

Additional observations from a re-analysis of the deposited data

How the results depend on the processing

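Of the alternatives, 1631 values of single genes kept direction and side of the threshold, 17 reversed, 18 gained a pass and 14 lost one; 219 medians moved by less than the spread between replicates and 13 by more. The cause of these moves was not tested. Members called rose from 0 over 12 arrays to 1 with array weights (MRPS28) and to 1 over 9 or 8 arrays (MRPS6) in adult maturation, to 1 over 8 arrays (MRPS6) in prepubertal maturation, and to 6, 1 and 2 with array weights (MRPL10, MRPL2, MRPL41, MRPL9, MRPS17 and MRPS6), 9 arrays (MRPS6) and 8 arrays (MRPS6 and MRPL9) in the average over both ages. Over 9 arrays adult maturation had 0 members with quantile normalization, median centring or probe set means and 2 without the filter (MRPS6 and MRPS28); the average had 2 with quantile normalization or 8 arrays (MRPS6 and MRPL9) and 0 with centring. Under an unadjusted p under 0.05 and a 2-fold change, 1, 6, 6, 2, 2 and 8 members passed over 12 arrays and 3, 6, 14, 5, 2 and 12 over 9 (GV ages, MII ages, adult maturation, prepubertal maturation, interaction, average). Without the 2-fold bound, 2.51%, 2.66%, 7.93%, 3.41%, 1.21% and 10.7% of all probe sets passed over 12 arrays, in the same order. Over 9 arrays these shares were 4.64%, 2.56%, 11.4%, 6.99%, 3.06% and 14.1%. The share of all probe sets with the 2-fold bound was not counted. Leaving out 1 array gave 0 to 1, 0 to 1 and 0 to 2 members over 9 arrays in adult, prepubertal and averaged maturation.

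Median member differences with centring were 0.88, 0.49 and 0.76 in adult, prepubertal and averaged maturation over 12 arrays, 0.55 in prepubertal maturation over 9 and 1.13 for the interaction over 9. With the letter b of the array titles, whose meaning is not stated, as a covariate over 12 arrays they were -1.09 in prepubertal and -0.75 in averaged maturation. In the fit of the 9 arrays, without this covariate, the interaction median was 0.44. Leaving out 1 array gave 0.08 to 1.0 for GV ages, -0.47 to 0.12 for prepubertal maturation and -0.78 to 0.0 for the interaction, and over 9 arrays -0.76 to -0.20 in adult and -0.58 to 0.27 in prepubertal maturation. Reversals of single genes were all in differences that had not passed. MRPL41 between GV ages became 0.03 with quantile normalization and 0.20 with array weights, and ranged from -0.89 to 0.28 (9 arrays, -1.5 to 0.82) with 1 array left out. MRPS6 between GV ages ranged from -0.25 to 2.24. Between MII ages MRPS6 became -0.14 over 9 and -0.01 over 8 arrays and ranged from -0.14 to 1.56, and over 9 arrays it became 0.23 with centring and ranged from -0.85 to 0.57. Its interaction became 0.02 with array weights and ranged from -1.49 to 1.0, and over 9 arrays it became 0.14 with centring and ranged from -1.28 to 0.15. MRPS2 in prepubertal maturation became -0.28 with probe set means.

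With the replicate number as a block, pairing arrays within the groups compared over 12 arrays, 0 members were called in every comparison and no call changed; MRPS6 in prepubertal maturation had a limma adjusted p of 0.306. Signal over background could not be read from the table used, so low signals such as the adult MRPS25 values are not known to be above background.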

Other observations

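In the comparison averaged over both ages, 4 of the 77 tested genes on the list of nuclear respiratory subunits passed over the 9 arrays. Of all probe sets 0.722% passed. All 4 genes were lower at MII, and ATP5IF1 among them encodes an inhibitor rather than a subunit. COX5B, a subunit of cytochrome c oxidase, read 12.68, 14.35, 13.73 and 14.25 on the GV arrays with an oocyte profile and 9.91, 10.93, 9.82, 10.77 and 10.16 at MII, and fell by 3.42 (SE 0.53, limma adjusted p = 0.0154). NDUFC2, a subunit of complex I, had GV signals of 10.90, 12.29, 11.51 and 11.30 on these arrays and MII signals of 7.07, 9.00, 7.20, 8.08 and 4.59, and fell by 4.17 (SE 0.90, limma adjusted p = 0.0498). Neither gene's stages overlap, as for 3.53% of all probe sets with MII lower. NDUFA12 fell by 2.98 (SE 0.41, limma adjusted p = 0.0076) and ATP5IF1 by 2.71 (SE 0.40, limma adjusted p = 0.0141). The averaged comparison was added after the data had been seen, and over all 12 arrays with equal weights no probe set passed it. With median centring over the 9 arrays no probe set passed either, with a limma adjusted p of 0.168 for COX5B, 0.188 for NDUFC2, 0.167 for NDUFA12 and 0.188 for ATP5IF1. With array weights over 12 arrays it was 0.031, 0.0191, 0.0174 and 0.0371 in the same order.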
